A study of Mus musculus with 6 samples.

Results

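The S100 genes encode small calcium-binding proteins, and 8 of them with reads in cultured mouse chondrocytes are described here: S100a1, S100a4, S100a6, S100a10, S100a11, S100a13, S100a16 and S100b. They are 8 of the 35976 gene rows of the deposited table and were picked by symbol, with S100a4 as the lead gene because an earlier look at the same libraries had placed it higher in one group. The difference between the groups in these 8 genes is therefore given as a description, without a test. All 8 passed the filter on low counts that left 13761 genes for testing.

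Polyadenylated RNA was sequenced from chondrocytes of the hind limb articular cartilage of C57BL/6 x 129S4/SvJae mouse embryos at day 18.5. The cells of every library had been expanded on plastic for 16 population doublings in medium with doxycycline at 2 µg/ml, which induced a transgene for the replacement histone H3.3. In 3 libraries (H3K9M, replicates 1, 3 and 5) the transgene carried methionine at lysine 9 and the genotype label gives suppressed H3K9 methylation; in the 3 others (H3WT, replicates 1, 2 and 4) it was the wild-type histone. The labels do not say whether each library came from a separate embryo, nor which promoter drove the transgene, so the spread between libraries may in part be technical.

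S100 proteins are dimers whose subunits each hold a pair of EF-hands, the helix-loop-helix fold that binds calcium. Binding opens a surface that docks target proteins, among them annexins, myosin heavy chains and cytoskeletal factors, and some S100 proteins are also released from cells and bind receptors such as RAGE. In cartilage S100a1 and S100b are known as proteins of differentiated chondrocytes, S100b is a widely used cartilage marker, and S100a4, also called fibroblast-specific protein, is known from motile mesenchymal cells. Most of the family lies in a gene cluster next to the genes of the epidermal cornified envelope.

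In the mm10 assembly, the build named in the submitters' processing notes, 7 of the 8 genes lie on chromosome 3 (RefSeq, GRCm38.p6). S100a1 (90511034 to 90514330), S100a13 (90514233 to 90524581), S100a16 (90537254 to 90543151), S100a4 (90603770 to 90606045) and S100a6 (90612894 to 90614414) share a stretch of 103.4 kb. S100a11 (93520496 to 93526288) and S100a10 (93555117 to 93564645) lie 2906.1 kb further on and are 28.8 kb apart. S100b lies alone on chromosome 10 (76253836 to 76261319). S100a1 is on the minus strand and the other members are on the plus strand. S100a1 and S100a13 point away from each other, and their RefSeq spans share 98 bases.

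Start-site sequences are shown for the member that separated the groups most clearly relative to its spread (S100a4) and for S100a6, which begins 6.8 kb downstream of it and whose groups overlapped. They are the 100 bases before the annotated start, at chr3:90603670-90603769 and chr3:90612794-90612893, plus strand. Sequences are from RefSeq, GRCm38.p6, and capitals mark the motif TATAAA and each CG dinucleotide.
S100a4: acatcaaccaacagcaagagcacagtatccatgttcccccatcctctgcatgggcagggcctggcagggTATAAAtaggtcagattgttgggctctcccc
S100a6: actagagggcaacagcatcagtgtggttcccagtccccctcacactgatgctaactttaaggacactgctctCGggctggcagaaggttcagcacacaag
TATAAA stands 31 bases before the S100a4 start. Start windows were found for 7 of the 8 members (the entry for S100a10 is missing), and S100a4 was the only one of these 7 genes with TATAAA, on either strand, in the 50 bases before a start, where 3.5% of 32851 mouse start windows hold it. In the 250 bases before the start, S100a4 and S100b had 2 CG dinucleotides each, S100a6 had 3, S100a1 had 8, S100a11 had 11 and S100a13 had 13, while S100a16 had 1 and 3 before its 2 starts, against a median of 6.0 over all windows. These matches describe the sequence and are not evidence of a bound factor.

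Library totals ran from 15113675 to 19606082 counts. Levels are given in CPM, counts scaled to a common library size with TMM, edgeR's correction for differences in library composition. The label chondrocyte was checked on 16 cartilage markers, of which 14 were in the table under these symbols and all 14 were tested; their summed level ran from 7420 to 11600 CPM in H3K9M and from 7320 to 19500 CPM in H3WT, so cartilage genes were expressed in every library. Of the 14, 13 had a log2 fold change (H3K9M minus H3WT) below 0, beside 6934 of the 13761 tested genes, and their median was -0.75. Of these markers 0 passed an adjusted p of 0.05 (edgeR), and the groups overlapped for all 14. At an unadjusted p under 0.05 (edgeR) 2 were lower, beside 5.77% of all tested genes. These 2 were Col9a1 and Col9a2, collagen IX chains named after their values were seen. Without H3WT replicate 2, 9 of the 14 were below 0 and the median was -0.22. The part of this shift in the S100 differences was not tested. Of this sum, Col2a1, the collagen that makes up most of cartilage fibrils, took 6300 ± 1850 CPM in H3K9M against 9640 ± 4600 in H3WT (SD over 3 libraries), with a log2 fold change of -0.61, or -0.22 without H3WT replicate 2. The 12 fibroblast markers summed to between 31700 and 58900 CPM over the 6 libraries. H3WT replicate 2 stood apart: the median of its chondrocyte markers lay 1.50 above the 6-library mean on the log2 scale, while the other 5 libraries lay between -0.60 and 0.40. The log2 fold changes of the members are given with this library and, where it moved them, without it.

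Across the transcriptome 0% of the 13761 genes passed an adjusted p of 0.05 (edgeR quasi-likelihood test, Benjamini-Hochberg), and among them 0 of the 8 S100 genes. At an unadjusted p under 0.05 there were 3 of the 8 (S100a4, S100a10 and S100a13) against 12.2% of all genes. The limma-voom test called 0 of the 8, and the DESeq2 Wald test called 2 (S100a4 and S100a10) against 1.83% of its genes. With edgeR and H3WT replicate 2 left out, S100a10 and S100a13 passed the adjusted threshold, as did 0.639% of all genes, and with every gene that had a count S100a4 passed it, as did 0.18%. In 3 of the 8 (the same S100a4, S100a10 and S100a13) all H3K9M libraries lay above all H3WT libraries, and 10.7% of all tested genes did so; in 0 of the 8 all lay below, beside 8.68% of all genes, so that 3 of the 8 were apart in either direction beside 19.4%. Without H3WT replicate 2, 6 of the 8 were apart and higher, beside 19.5% of all genes. Since these members were chosen on this contrast, nothing is read from these counts. The median log2 fold change (H3K9M minus H3WT) of the 8 was 0.53, beside -0.003 for all tested genes.

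The 8 transcripts spanned a wide range of abundance. Per kilobase of transcript, which allows levels of different genes to be compared, S100a6 had the highest mean in both groups, at 1603 ± 301.4 CPM per kb in H3K9M and 1119 ± 535.7 CPM per kb in H3WT (SD, n = 3 each). In H3K9M it was followed by S100a4 (1178 CPM per kb), S100a11 (878.7), S100a10 (289.7), S100a13 (106.1), S100a16 (47.15), S100a1 (46.66) and S100b (19.26). In H3WT the order was the same except that S100a11 (918.1 CPM per kb) stood before S100a4 (584.6). Neighbours in the H3K9M order overlapped only for S100a6 with S100a4 and for S100a16 with S100a1. In H3WT the neighbours S100a6 with S100a11, S100a13 with S100a16, S100a16 with S100a1, and S100a1 with S100b overlapped. Summed over the 8 genes, the level was 2278, 2796 and 2709 CPM in H3K9M replicates 1, 3 and 5 and 1532, 2367 and 1517 CPM in H3WT replicates 1, 2 and 4. S100a6 alone made up 35.6% to 53.5% of that sum in a library.

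**Figure D1:**
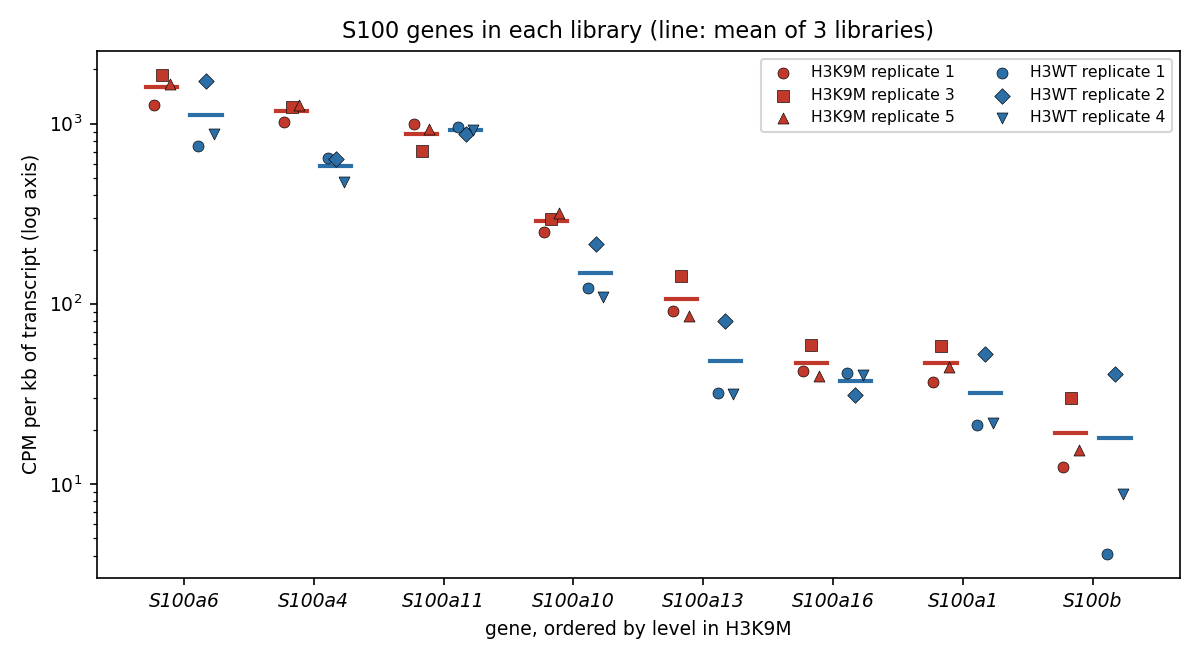
Level of each S100 gene in each library, in CPM per kilobase of transcript on a log axis; each point is 1 library and each line is the mean of 3. All 3 H3K9M points of S100a4, S100a10 and S100a13 lie above the H3WT points of the same gene, and H3WT replicate 2 has the highest S100b level (40.94 CPM per kb).

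S100a4, which binds non-muscle myosin IIA and is linked to cell motility, had 509.5, 613.7 and 636.1 CPM in H3K9M replicates 1, 3 and 5. In H3WT replicates 1, 2 and 4 it had 320, 317.9 and 235.5 CPM. Every H3K9M library was above every H3WT library, and the nearest values of the groups were 509.5 and 320 CPM. The means were 586.4 ± 67.57 and 291.1 ± 48.21 CPM (SD, n = 3 each), a 2.01-fold difference, with a log2 fold change of 1.01 (SE 0.16). Among the 8 genes only S100a11 varied less within groups: 1 SD of log2 CPM was 0.22 for S100a4 and 0.19 for S100a11, against 0.27 to 1.28 for the others. Leaving out any 1 library kept the log2 fold change between 0.88 and 1.10, and without H3WT replicate 2 it was 1.09. GENCODE M21 places a further transcript, Gm42674, over 302 of the 584 exon bases of S100a4 on the same strand. That gene has no row in the table used here.

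Within each library S100a4 was set against 3 other members of the family. The ratio of S100a4 to S100a11, in CPM, was 1.00, 1.70 and 1.33 in H3K9M replicates 1, 3 and 5, against 0.65, 0.71 and 0.50 in H3WT replicates 1, 2 and 4, with no overlap. Its ratio to S100a6 did overlap, at 0.449 to 0.546 in H3K9M and 0.251 to 0.586 in H3WT, and so did its ratio to S100a10, at 2.90 to 3.02 in H3K9M and 2.15 to 3.81 in H3WT. Over the 6 libraries the genes whose log2 CPM tracked S100a4 most closely, among 9450 genes with a mean of at least 10 CPM, were Skil (Pearson's r 0.992), Hbs1l (0.992), 2810025M15Rik (0.988), Timm22 (0.988) and Rnf11 (0.984). These are descriptions from 6 points that include the difference between the groups, and 2.12% of the genes compared had an r above 0.9 with S100a4.

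S100a10, also called p11, has EF-hand loops that no longer bind calcium and forms a tetramer with annexin A2 at the cell membrane. It had 172.2, 203.6 and 219.6 CPM in H3K9M replicates 1, 3 and 5 and 83.93, 147.7 and 74.23 CPM in H3WT replicates 1, 2 and 4. The groups did not overlap, though H3WT replicate 2 came close to the lowest H3K9M library. Means were 198.4 ± 24.12 and 102 ± 39.93 CPM (SD, n = 3 each), with a log2 fold change of 0.96 (SE 0.26), or 1.34 without H3WT replicate 2.

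Anxa2, the gene of that partner, is not a member and was tested. It had 1400, 1510 and 1540 CPM in H3K9M replicates 1, 3 and 5 and 932, 1230 and 901 CPM in H3WT replicates 1, 2 and 4. The groups did not overlap, but the log2 fold change of 0.54 (SE 0.16) did not pass over all genes (adjusted p 0.269, edgeR). Anxa2 and S100a10 ranked the 6 libraries in the same order. Pearson's r of log2 CPM between them was 0.997 (n = 6 libraries, which include the difference between the groups), and r was 0.98 over the 4 libraries left without the 2 lowest in S100a10. The transcripts were not in a fixed proportion, since S100a10 amounted to 0.123, 0.135 and 0.142 of the Anxa2 CPM in H3K9M and to 0.09, 0.12 and 0.082 in H3WT.

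**Figure D2:**
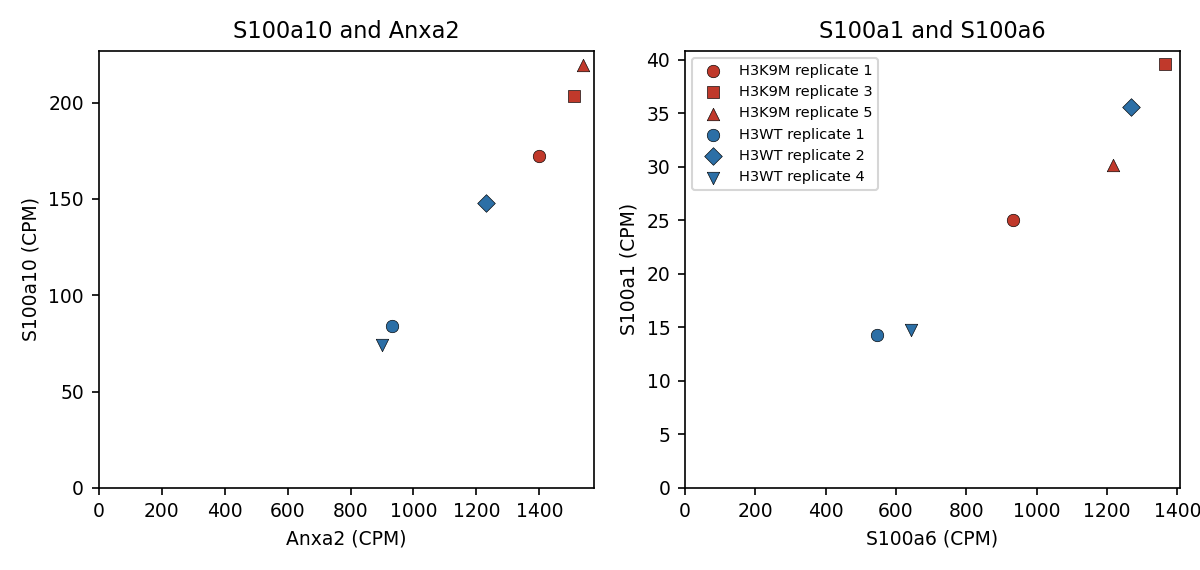
CPM of S100a10 against Anxa2 (left) and of S100a1 against S100a6 (right), 1 point per library. In the left panel the 3 H3K9M libraries lie beyond all H3WT libraries on both axes, while in the right panel H3WT replicate 2 lies among the H3K9M libraries.

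S100a13, which takes part in the release of FGF1 and interleukin-1 alpha by a route outside the secretory pathway, had the largest log2 fold change of the 8. It had 65.18, 101.7 and 60.82 CPM in H3K9M replicates 1, 3 and 5 and 22.91, 57.33 and 22.5 CPM in H3WT replicates 1, 2 and 4. The groups were apart by a narrow margin, 60.82 against 57.33 CPM. Means were 75.88 ± 22.43 and 34.25 ± 19.99 CPM (SD, n = 3 each), with a log2 fold change of 1.15 (SE 0.41), 1.75 without H3WT replicate 2 and 0.89 without H3K9M replicate 3.

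S100a1, the head-to-head neighbour of S100a13 and a regulator of calcium cycling in striated muscle, had 24.99, 39.57 and 30.2 CPM in H3K9M replicates 1, 3 and 5. Its values in H3WT replicates 1, 2 and 4 were 14.32, 35.59 and 14.73 CPM, so the groups overlapped through H3WT replicate 2. The log2 fold change was 0.55 (SE 0.38), and 1.13 without that library. Both genes of the pair were lowest in H3WT replicates 1 and 4 and highest in H3K9M replicate 3. Pearson's r of log2 CPM between them was 0.94 (n = 6 libraries), but 0.53 over the 4 libraries left without H3WT replicates 1 and 4. The ratio of S100a13 to S100a1 CPM was 2.61, 2.57 and 2.01 in H3K9M replicates 1, 3 and 5, against 1.60, 1.61 and 1.53 in H3WT replicates 1, 2 and 4. That ratio kept H3WT replicate 2 with its own group, unlike the level of S100a1 itself. In GENCODE M21 the exons of S100a1 and S100a13 have no bases in common, but the annotation used for counting is not known. Whether reads in the stretch shared by both RefSeq spans were counted for one or the other is not stated in the sources used here.

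S100a6, or calcyclin, a growth-regulated gene that is abundant in mesenchymal cells, had 932.2, 1366 and 1217 CPM in H3K9M replicates 1, 3 and 5 and 546, 1267 and 641.9 CPM in H3WT replicates 1, 2 and 4. H3WT replicate 2 was above 2 of the 3 H3K9M libraries, and the groups overlapped. The log2 fold change was 0.52 (SE 0.32), and 0.99 without H3WT replicate 2. S100a6 and S100a1 ranked the 6 libraries identically (Spearman's rho 1.0, Pearson's r 0.99 of log2 CPM, n = 6), and r was 0.95 over the 4 libraries left without H3WT replicates 1 and 4. Deviations from the group means, which leave the group difference out, gave an r of 0.98.

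S100b, the cartilage and glial marker, was the lowest of the 8 per kilobase in both groups and the most variable. Its levels were 18.49, 44.26 and 23.01 CPM in H3K9M replicates 1, 3 and 5. In H3WT replicates 1, 2 and 4 they were 6.063, 60.76 and 13.08 CPM, so that the highest and the lowest values of the series were both in H3WT. The log2 fold change of 0.10 had an SE of 0.85, and 1 SD of log2 CPM within groups was 1.28. That log2 fold change was 1.59 without H3WT replicate 2, 0.34 without H3K9M replicate 1 and 0.25 without H3K9M replicate 5. Its sign turned without H3WT replicate 1 (-0.37), H3WT replicate 4 (-0.22) or H3K9M replicate 3 (-0.35). S100b followed S100a6 over the libraries (Pearson's r 0.92, Spearman's rho 0.94, n = 6). That r was 0.77 over the 4 libraries left without H3WT replicates 1 and 4, and 0.95 over the 5 without H3WT replicate 2.

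The shared library pattern of S100a6, S100a1 and S100b was only partly that of the cartilage markers. Pearson's r of log2 CPM with the median chondrocyte marker was 0.29 for S100a6, 0.25 for S100a1 and 0.56 for S100b (n = 6 libraries). In H3WT replicate 2 S100b lay 1.51 above its 6-library mean on the log2 scale and the median chondrocyte marker 1.50 above. In H3K9M replicate 3 S100b lay 1.06 above its mean while the median chondrocyte marker lay 0.42 below. In bulk RNA fewer cells of a type and less RNA per cell cannot be told apart. Glial and melanocyte markers were low, at 11.1 to 28.1 CPM summed over 11 genes, and 4 of them (Sox10, Foxd3, Tyr and Dct) had 0 counts in every library.

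**Figure D3:**
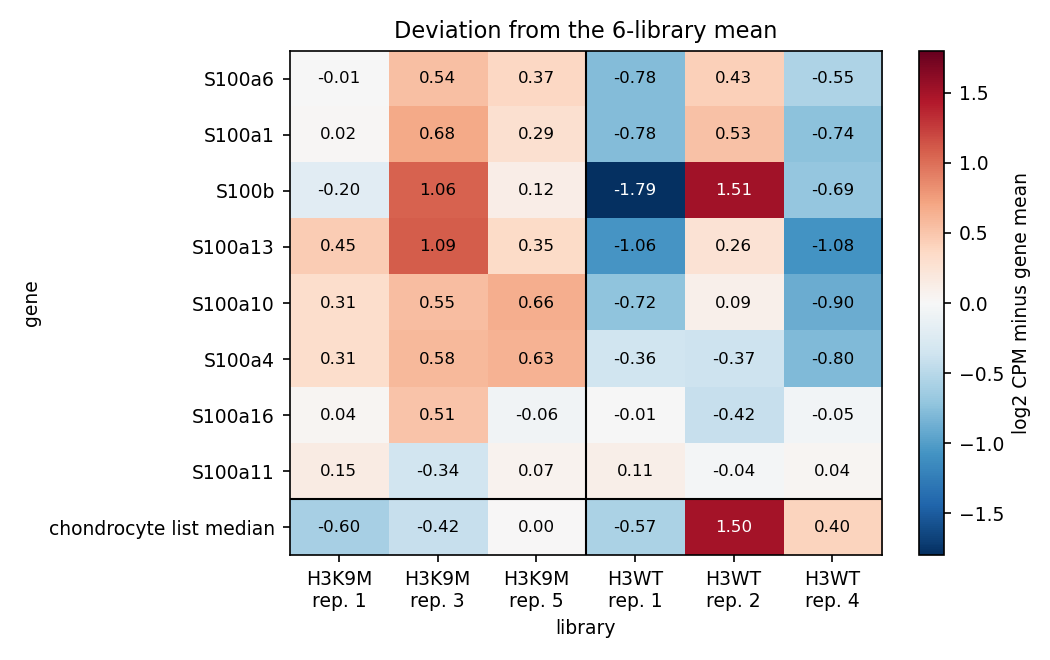
Log2 CPM of each S100 gene minus its mean over the 6 libraries (columns), with the median of the 14 chondrocyte markers in the bottom row. S100a6, S100a1 and S100b are high in H3K9M replicate 3 and H3WT replicate 2 and low in H3WT replicates 1 and 4, whereas S100a4 is below its mean in all 3 H3WT libraries (-0.36, -0.37 and -0.80).

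S100a11, a partner of annexin A1, was the member with the most similar means: 507.6, 361.1 and 478.4 CPM in H3K9M replicates 1, 3 and 5 and 492.1, 445.4 and 470 CPM in H3WT replicates 1, 2 and 4. The groups overlapped, and H3K9M replicate 3 was the lowest library for S100a11 and the highest for S100a1, S100a6, S100a13 and S100a16. The log2 fold change was -0.06 (SE 0.15), and 0.08 without H3K9M replicate 3. Transcripts of 5 processed pseudogenes are at least 90% identical to that of S100a11 over 200 or more bases, so some of its reads may have been placed on or taken from those copies. S100a16, a widely expressed member that binds calcium weakly, had 47.83, 66.44 and 44.59 CPM in H3K9M and 46.32, 34.82 and 45.01 CPM in H3WT, in replicate order. The groups overlapped, with a log2 fold change of 0.33 (SE 0.20), 0.15 without H3K9M replicate 3 and 0.22 without H3WT replicate 2. H3WT replicate 2, high for S100b, S100a1 and S100a6, was the lowest library for S100a16.

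Transcript length moved with the group difference and bears on these short genes, 6 of which have a transcript under 800 bases (S100a4, 498; S100a11, 511; S100a1, 677; S100a10, 685; S100a13, 715; S100a6, 731), while S100a16 has 1123 and S100b 1484. The limit of 800 bases was set after the lengths and differences were seen. All 604 tested genes with a transcript under 800 bases had a median log2 fold change of 0.31, and in 30.8% of them every H3K9M library lay above every H3WT library. That share was 39.9% among the 336 genes from 500 to under 800 bases, which hold 5 of the members, and 19.4% among the 268 shorter ones, which hold S100a4. The median was -0.14 for 1653 genes of 6000 bases or more. In each library separately the median deviation of the short genes was positive in H3K9M (0.14 to 0.21) and negative in H3WT (-0.20 to -0.11). Of the 6 short members 3 were apart and higher (S100a4, S100a10 and S100a13).

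With an offset that removes a smooth dependence on transcript length and GC content in each library, the median of the 8 members was 0.27. The offset did not level every length class. The median of the 268 genes under 500 bases, the class of S100a4, went from 0.12 to -0.16. That of the 336 genes from 500 to under 800 bases, which include S100a11 at 511 bases, went from 0.37 to 0.08. The part of this remainder in the S100a4 and S100a11 values under the offset was not tested. S100a4 then stood at 0.63 (SE 0.16) and was the only member whose H3K9M libraries all lay above the H3WT libraries, against 7.92% of all genes under that offset. S100a13 had 0.89 (SE 0.40) and S100a10 0.65 (SE 0.25), both with overlapping groups. S100a11 had -0.45 (SE 0.15), with every H3K9M library below every H3WT library. Under that offset 2143 of the 13761 tested genes were apart in either direction. S100b had -0.09 (SE 0.84). The direction of S100b therefore depended on the scaling and on single libraries. S100a11 was below 0 with and without the offset, and its sign turned only without H3K9M replicate 3 (0.08, without the offset). S100a4, S100a10 and S100a13 kept a positive difference of smaller size. The part of RNA quality or library preparation in the length trend was not tested.

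**Figure D4:**
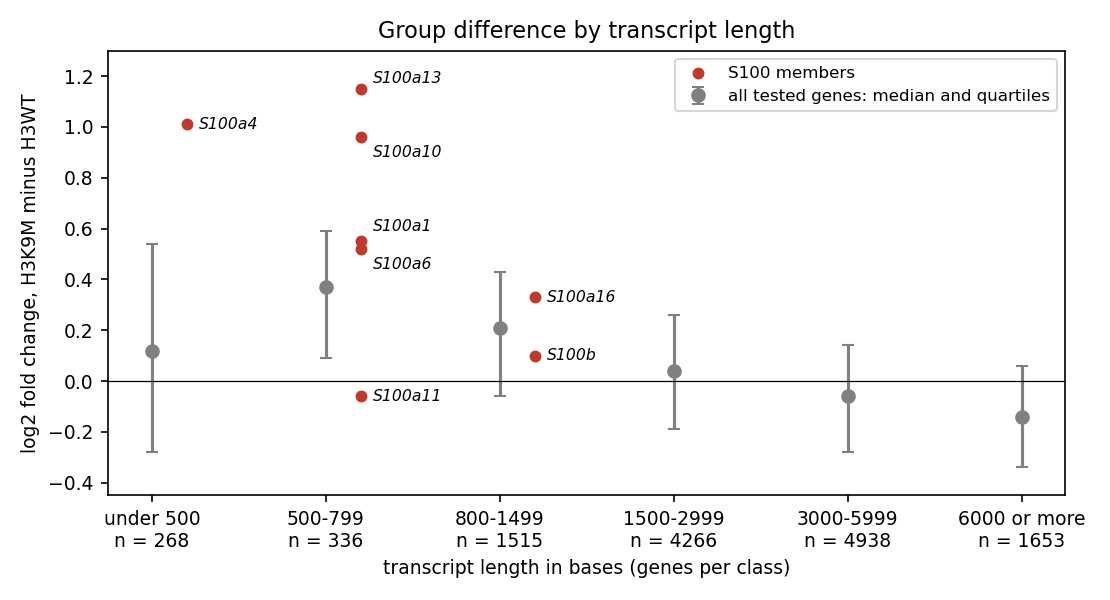
Log2 fold change by transcript length class; grey points and bars are the median and quartiles of all tested genes in the class, red points are the S100 genes. The median is 0.12 under 500 bases, then falls from 0.37 in the class that starts at 500 bases to -0.14 at 6000 bases or more, and S100a4, S100a10 and S100a13 lie above the upper quartile of their class, S100a11 below the lower quartile and the other 4 between the quartiles.

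**Figure D5:**
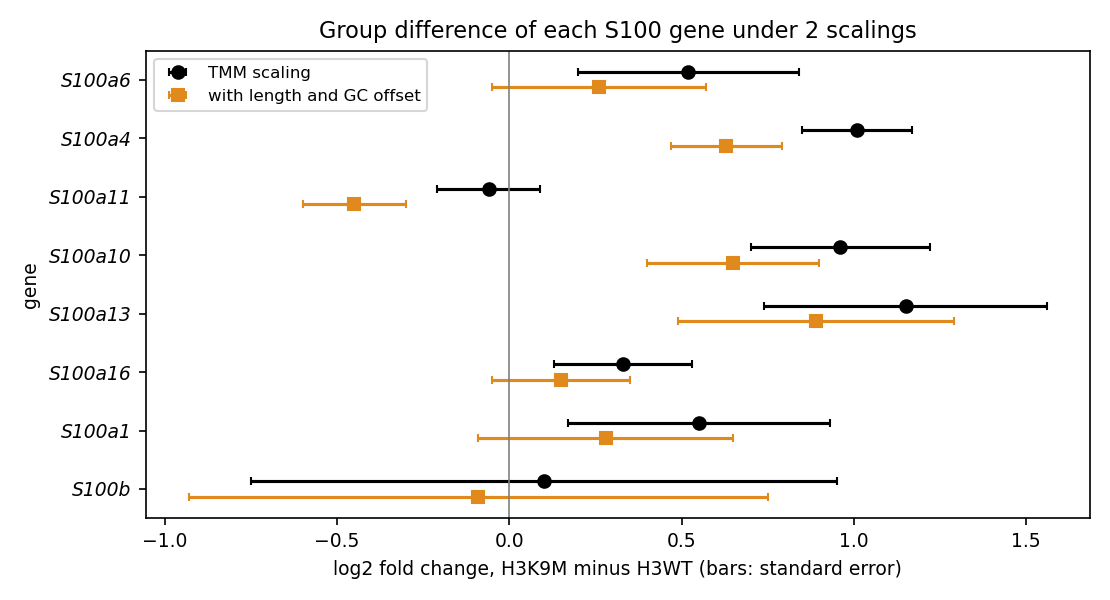
Log2 fold change of each S100 gene with its standard error, with TMM scaling (black) and with the length and GC offset (orange). S100a4 goes from 1.01 to 0.63, S100a11 from -0.06 to -0.45 and S100b from 0.10 to -0.09.

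Most other S100 genes had few or no reads. Of 9 further S100 rows, S100a8, S100a9 and S100z had 0 counts in all 6 libraries; 3 counts, the limit that a count of 0 allows, correspond to 0.145 to 0.201 CPM. S100a8 and S100a9 encode calprotectin of neutrophils and monocytes. S100a2, S100a5, S100a14 and S100g had between 1 and 26 counts in total and were not tested. S100a3, whose annotated end lies 1.1 kb before S100a4, had 23, 79 and 74 counts in H3K9M replicates 1, 3 and 5 and 2, 8 and 9 counts in H3WT replicates 1, 2 and 4. The groups did not overlap, and the log2 fold change was 3.09 (SE 0.83), which did not pass over all genes (adjusted p 0.239, edgeR). With DESeq2 the adjusted p was 0.0163 for a log2 fold change of 3.11, and with edgeR and the length and GC offset the log2 fold change was 2.84. GENCODE M21 joins the loci through Gm42674, which shares 144 exon bases with S100a3 and 302 with S100a4, so reads running on from one gene into the other cannot be told apart here. S100a7a, a gene of inflamed skin also called S100a15, had 24.0, 30.4 and 8.27 CPM in H3K9M and 14.4, 10.4 and 1.94 CPM in H3WT, in replicate order. Its groups overlapped (log2 fold change 1.23 with an SE of 0.75, adjusted p 0.552, edgeR).

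Known partners, receptors and targets of S100 proteins were examined as a list of 32 genes, none of them members. Of these 27 were tested and 0 passed an adjusted p of 0.05 with edgeR, DESeq2 or limma-voom. At an unadjusted p under 0.05 with edgeR there were 4 higher in H3K9M (Anxa2, Anxa5, Cacybp and Sugt1) and 1 lower (Atp2a2), beside 6.42% higher and 5.77% lower among all tested genes. The median log2 fold change of the list was 0.11, with 16 genes above 0 and 11 below. Cacybp was named after its value was seen. Cacybp and Sugt1 encode binding partners of the S100a6 protein, and Anxa5 encodes a membrane-binding annexin found in cartilage matrix vesicles.

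Among these partners Anxa5 had 591, 589 and 565 CPM in H3K9M replicates 1, 3 and 5 and 441, 490 and 435 CPM in H3WT replicates 1, 2 and 4 (log2 fold change 0.35 with an SE of 0.12, adjusted p 0.30, edgeR). Sugt1 averaged 81.1 ± 11.1 CPM in H3K9M against 60.4 ± 3.08 in H3WT (SD over 3 libraries; log2 fold change 0.43 with an SE of 0.14, adjusted p 0.292, edgeR). Atp2a2, the calcium pump of the endoplasmic reticulum and a target of S100a1, had 293 ± 48.6 CPM against 414 ± 39.4 (log2 fold change -0.50 with an SE of 0.16, adjusted p 0.283, edgeR). In each of these 3 genes the groups did not overlap. Of the 27 tested partners 4 were apart and higher and 1 was apart and lower, beside 10.7% and 8.68% of all tested genes. Myh9, the myosin heavy chain bound by S100a4, had 3070, 2260 and 2780 CPM in H3K9M and 4260, 2630 and 4040 CPM in H3WT, in replicate order, with overlapping groups (log2 fold change -0.43 with an SE of 0.22, adjusted p 0.466, edgeR). Myh10, a second non-muscle myosin, had a log2 fold change of -0.98 with an SE of 0.47 (adjusted p 0.456, edgeR), and Bsg, a membrane receptor for some secreted S100 proteins, had 0.30 (SE 0.16, adjusted p 0.486, edgeR).

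Calcium-binding EF-hand genes outside the family formed a list of 25, of which 22 were tested. With edgeR and limma-voom 0 passed, and DESeq2 called 1, Sri, beside 1.83% of all its genes. At an unadjusted p under 0.05 with edgeR there were 3 higher (Sri, Nucb2 and Calm2) and 0 lower, beside 6.42% and 5.77% of all tested genes, and the median log2 fold change was 0.02, with 12 genes above 0 and 10 below. Sri, which encodes the calcium sensor sorcin, had 72.5, 87.0 and 75.8 CPM in H3K9M replicates 1, 3 and 5 and 50.7, 48.0 and 50.8 CPM in H3WT replicates 1, 2 and 4. These values did not overlap (log2 fold change 0.65 with an SE of 0.12, adjusted p 0.17 with edgeR and 0.0172 with DESeq2). Of the 22 tested genes of this list 4 were apart and higher and 1 was apart and lower, beside 10.7% and 8.68% of all tested genes. Nucb2, a calcium-binding protein of the Golgi, had 109 ± 17.6 against 73.2 ± 9.78 CPM (SD, n = 3 each; log2 fold change 0.58, adjusted p 0.249, edgeR). Calm2, a calmodulin gene, had 377 ± 36.1 against 280 ± 38.3 CPM (log2 fold change 0.43, adjusted p 0.307, edgeR). Lower in H3K9M but not past the test were Nucb1 (log2 fold change -0.25), Chp1 (-0.24) and Ncald (-1.74), with adjusted p of 0.443, 0.492 and 0.608 (edgeR). The most abundant per length were Sparc (1994 CPM per kb over the 6 libraries), Calu (465.0) and Rcn3 (324.8), with log2 fold changes of -0.07, 0.02 and -0.20.

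Genes around the S100 loci were examined for the same contrast. Within 100 kb of a member the table held 15 genes that are not S100 genes, of which 9 were tested. Of these 0 passed an adjusted p of 0.05 and 0 an unadjusted p of 0.05 with edgeR. DESeq2 and limma-voom also called 0 after adjustment, and the median log2 fold change was -0.05. Before the cluster, Ints3 had -0.25 (SE 0.12), Ilf2 -0.06 (SE 0.18) and Snapin 0.17 (SE 0.16), with adjusted p of 0.459, 0.93 and 0.706 (edgeR). On either side of S100b, Prmt2 had 0.24 (SE 0.14, adjusted p 0.527) and Pcnt -0.37 (SE 0.17, adjusted p 0.425, edgeR). The row Mir678, a microRNA inside Prmt2, had 1.94 to 4.96 CPM and a log2 fold change of 0.48 (adjusted p 0.76, edgeR). Tchh, the hair-follicle gene trichohyalin 71419 bases from S100a11, had 0.067, 1.35 and 1.07 CPM in H3K9M and 1.91, 4.62 and 2.00 CPM in H3WT, in replicate order, without overlap (log2 fold change -1.75 with an SE of 0.95, adjusted p 0.489, edgeR). Of the 9 tested neighbours 1 was apart and higher and 2 were apart and lower, beside 10.7% and 8.68% of all tested genes. A difference between the neighbours and the members was not tested.

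Between the S100a1 to S100a6 stretch and S100a11 lie the genes of the epidermal cornified envelope, such as loricrin and the small proline-rich proteins. Of 25 genes of this complex 22 had 0 counts in every library, and Tchh, with at most 89 counts in a library, was the only one that passed the filter. On one side of it S100a6 reached 1869 CPM per kb in a library, and on the other S100a11 reached 993.3 CPM per kb.

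Markers of other cells were compared with the S100 levels. Of 10 macrophage and neutrophil markers 5 (Ptprc, Adgre1, Itgam, Fcgr1 and Csf3r) had 0 counts in every library. Reads were present for Cd68 (11 to 265 counts per library), Cd14 (21 to 187), Lyz2 (9 to 35), Csf1r (0 to 67) and Ly6g (0 to 9). Cd68 peaked in H3K9M replicate 3 and Cd14 in H3WT replicate 2. The list summed to 11.8 to 22.7 CPM in H3K9M and 5.83 to 13.5 CPM in H3WT. Its 4 tested genes all had a log2 fold change above 0 (median 0.54), with overlapping groups. Of these, 0 passed an adjusted p of 0.05 (edgeR). The part of such cells in the S100 levels was not tested. The 8 endothelial markers summed to 5.85 to 22.6 CPM and the 8 keratinocyte markers to 5.73 to 33.1 CPM over the 6 libraries. Of these 8 endothelial markers Cdh5, Tie1, Emcn and Cldn5 had 0 counts in every library. Erg had reads in every library, with 156, 108 and 260 counts in H3K9M replicates 1, 3 and 5. In H3WT replicates 1, 2 and 4 Erg had 191, 434 and 243 counts. Pecam1, Kdr and Tek had at most 14 counts in a library. The 9 skeletal muscle markers summed to 27.2 to 237 CPM in H3K9M and 13.2 to 32 CPM in H3WT. Among them Myod1 had 291, 1179 and 84 counts in H3K9M replicates 1, 3 and 5 and 0, 20 and 0 counts in H3WT replicates 1, 2 and 4, and Myf5 had 0 counts throughout. H3K9M replicate 3, highest for Myod1, was also the highest library for S100a1, S100a6, S100a13 and S100a16, and the part of myogenic cells in the S100 levels was not tested. Without that library the log2 fold changes were 0.37 for S100a1, 0.40 for S100a6, 0.89 for S100a13 and 0.99 for S100a4.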

How the data were processed

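The deposited table holds raw counts of reads for each gene, with a column for every library; the authors deposited them without normalization, as whole numbers whose totals differ show. Per the submitters' processing notes the tools were HISAT2, featureCounts and DESeq2 and the build mm10; versions, annotation and strand setting are not given in the sources used here, and the libraries came from a Tecan mRNA kit per the labels' protocols.

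Column names matched sample titles, from which groups were taken. The analysis used edgeR 4.0.16 (R 4.3.3): filterByExpr defaults, TMM scaling and a robust quasi-likelihood fit over the 6 libraries with group as the only term, adjusted by Benjamini-Hochberg over 13761 genes at 0.05. An SE was obtained by dividing the absolute log2 fold change by the root of F. CPM are TMM-scaled, log2 CPM use a prior count of 2, and per-kb levels use the longest GENCODE M21 transcript with a curated RefSeq entry, or else the longest one. With 3 libraries against 3 an exact permutation test cannot go below p = 0.1, so none was run. Totals of 15113675 to 19606082 counts limit precision little for members, all above 100 counts in every library.

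Members and gene lists were chosen with earlier results of these data known. Named were all members, the other S100 genes, and in each list the genes past the threshold or, with fewer than 3, the 3 smallest p-values in each direction and the 3 most abundant per length, plus the 5 genes most like S100a4 and the genes that check the label (Sox9, Acan, Col2a1, Col1a1 and Vim). Neighbours are RefSeq genes within 100 kb of a member. Alternatives were DESeq2 1.42.0, limma-voom (limma 3.58.1), DESeq2 size factors, library size alone, 2 other count filters, no robust estimation, a loess offset (span 0.5) on transcript length and GC content, found for 94.3% of tested genes, and leaving out each library. Similar transcripts were found with blastn 2.17.0.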

Additional observations from a re-analysis of the deposited data

How the results depend on the processing

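The fits with DESeq2, limma-voom, 2 other scalings, 2 other count filters and no robust estimation left all 8 members within 1 SD of their reported log2 fold change. The SD used was that of log2 CPM between libraries within groups, not a spread of the fold change. It ran from 0.19 for S100a11 to 1.28 for S100b, a wide limit for variable genes. With limma-voom S100b moved from 0.10 to 0.65 and still counted as within its SD. In all, 108 of 112 recomputed member values stayed within this limit. The 4 that did not were S100a4 (0.63) and S100a11 (-0.45) with the length and GC offset, and S100a1 (1.13) and S100b (1.59) without H3WT replicate 2. With that offset 1 member rather than 3 had all H3K9M libraries above all H3WT libraries. When libraries were left out in turn, 3 to 6 members did, the 6 without H3WT replicate 2 (where 19.5% of all genes did), and the members' median ran from 0.37 to 1.11. Without H3WT replicate 2 it was 1.11.

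Over all genes the count at an adjusted p under 0.05 was 0 as reported, 365 with DESeq2 and 36 with every gene that had a count (S100a4 among them); the cause was not tested. It ran from 0 to 91 over the fits without a library, with 91 without H3WT replicate 2 (S100a10 and S100a13 among them) and 2 without H3K9M replicate 3. Genes at an unadjusted p under 0.05 ran from 1212 to 2434. Genes whose groups do not overlap ran from 3828 to 5331, since fewer libraries separate more easily. The partners' median ran from 0.09 to 0.25 without a library. The EF-hand median of 0.02 was 0.078 with library size alone, where the median of all genes was 0.053, and -0.041 with the length and GC offset, and it ran from -0.01 to 0.08 without a library. The neighbours' median ran from -0.09 to 0.03.

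Of 417 recomputed values for genes named with a test, 399 kept their direction and side of the threshold. DESeq2 called S100a3 (adjusted p 0.0163, log2 fold change 3.11) and Sri (adjusted p 0.0172, log2 fold change 0.65). Signs turned with the length and GC offset for Calu (-0.04), Col1a1 (0.19) and Snapin (-0.004), and with limma-voom for Col1a1 (0.06). With single libraries removed in turn, Acan ran from -0.74 to 0.79, Calu from -0.04 to 0.15, Col1a1 from -0.50 to 0.48, Ilf2 from -0.25 to 0.08, Sparc from -0.23 to 0.12 and Vim from -0.01 to 0.33. No paired analysis was possible because the groups share only replicate number 1, fewer than 2 numbers.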

Other observations

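Of the genes that checked the label and are not described above, Sox9, the master regulator of the chondrocyte lineage, averaged 148 ± 33.8 CPM in H3K9M against 225 ± 72.0 in H3WT (SD over 3 libraries; adjusted p 0.429, edgeR). Acan, the gene of the cartilage proteoglycan aggrecan, had 298 ± 154 against 356 ± 319 CPM (adjusted p 0.92, edgeR). Col1a1, the fibroblast collagen, had 10700 ± 5360 against 11400 ± 7630 CPM (adjusted p 0.973, edgeR), and Vim, the mesenchymal intermediate filament, had 6060 ± 1180 against 5500 ± 1130 CPM (adjusted p 0.846, edgeR). None of these 4 passed the test and the groups overlapped for each.

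The genes whose log2 CPM most closely tracked the other members over the 6 libraries were 1110008P14Rik for S100a1 (Pearson's r 0.995) and S100a6 (0.997), Tuba1a for S100a11 (0.994), Lsm1 for S100a13 (0.987), Mapkapk3 for S100a16 (0.987) and Sgk3 for S100b (0.997). These are descriptions over 6 libraries among 9450 genes, of which 1.29% to 2.74% had an r above 0.9 with a given member.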
